A study of Mus musculus with 8 samples.

Results

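The 9 genes followed here mark microglia of the undisturbed brain, and they were measured in cultured mouse microglia with and without immunoglobulin G (IgG). They were P2ry12, P2ry13, Tmem119, Cx3cr1, Sall1, Gpr34, Olfml3, Mef2c and Slc2a5, found by their GENCODE symbols among the 55385 genes of a table of read counts, and all 9 were found. Of these, 8 had enough counts to be tested, as had 17537 genes in all, and Slc2a5 did not. Polyadenylated RNA was measured in 4 control and 4 IgG libraries. All cells were wild-type primary microglia from the neocortex and hippocampus of newborn mice, with the brains pooled, grown as mixed cultures in medium with fetal bovine serum and then shaken off and replated. The IgG cultures received 10 µg/ml IgG at DIV15 (days in vitro) for 24 h, whereas the labels call the control cultures untreated and the methods give them PBS. Control and IgG cultures with the same replicate number share their date, which gives 4 pairs. Apart from these dates nothing states that the pairs came from separate animals, and p-values measure the spread among these cultures.

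Microglia are the resident macrophages of the brain, and their resting state is held by signals from the tissue, among them transforming growth factor beta (TGF-beta). P2ry12 and P2ry13 are receptors for ADP, through which microglia sense nucleotides leaking from nearby cells and send out their processes. Gpr34 is a receptor for lysophosphatidylserine, and Cx3cr1 is the receptor for the neuronal chemokine fractalkine, encoded by Cx3cl1. Tmem119 is a membrane protein used to tell microglia from blood-derived macrophages, and Olfml3 is a secreted glycoprotein of the olfactomedin family. Sall1 and Mef2c are transcription factors of microglial identity, and Slc2a5 encodes a fructose transporter. Several of these genes are known to fall when microglia leave the brain for a dish.

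The promoters are shown first because P2ry12 and P2ry13, which lie next to each other on chromosome 3, had the most similar profiles of any 2 of these genes, and because Cx3cr1 was by far the most abundant of these genes. They are RefSeq windows of the GRCm38.p6 build from 250 bases before to 50 bases after the transcription start, and 7 of the 9 genes had at least 1 window, the genes with no entry being Tmem119 and Gpr34. Capitals mark matches on either strand to a letter pattern for PU.1 (AGGAAGT), for MEF2 (CTANNNNTA), for the interferon-stimulated response element (TTTCNNTTT) or for STAT factors (TTCNNNGAA). N stands for any base, so the MEF2 pattern is looser than the A- and T-rich motif of MEF2. Each MEF2 match shown here holds a G or C at the places marked N.
P2ry12 promoter, chr3:59262936-59263235, minus strand: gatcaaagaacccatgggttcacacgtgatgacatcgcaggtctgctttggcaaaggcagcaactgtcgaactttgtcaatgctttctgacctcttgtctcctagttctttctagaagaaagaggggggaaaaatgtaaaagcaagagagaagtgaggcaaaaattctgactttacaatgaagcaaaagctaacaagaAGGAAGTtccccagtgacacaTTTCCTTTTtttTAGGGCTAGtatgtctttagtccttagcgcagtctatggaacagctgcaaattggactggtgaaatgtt
P2ry13 promoter, chr3:59210833-59211132, minus strand: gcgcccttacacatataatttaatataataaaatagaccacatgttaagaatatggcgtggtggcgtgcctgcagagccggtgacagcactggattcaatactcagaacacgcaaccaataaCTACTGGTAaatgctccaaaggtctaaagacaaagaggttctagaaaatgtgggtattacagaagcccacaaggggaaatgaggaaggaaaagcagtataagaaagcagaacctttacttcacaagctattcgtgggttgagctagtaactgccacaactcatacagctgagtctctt
Cx3cr1 promoter, chr9:120068247-120068546, minus strand: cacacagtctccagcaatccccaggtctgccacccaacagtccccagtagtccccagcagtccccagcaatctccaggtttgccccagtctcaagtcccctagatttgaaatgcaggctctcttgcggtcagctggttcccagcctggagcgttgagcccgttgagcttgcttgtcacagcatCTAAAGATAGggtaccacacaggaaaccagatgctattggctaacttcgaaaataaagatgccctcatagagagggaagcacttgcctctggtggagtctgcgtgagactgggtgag

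The P2ry12 window held a PU.1 match 52 bases before the start, an interferon-stimulated response element match 31 bases before it and a MEF2 match 19 bases before it. The P2ry13 window held a MEF2 match 128 bases before the start. In the Cx3cr1 window 2 MEF2 matches overlapped, 67 and 66 bases before the start. Among all 32851 windows, 9.35% held the PU.1 letters, 21.04% the MEF2 letters, 10.55% those of the interferon-stimulated response element, 8.3% those of the STAT site and 0.21% the SMAD palindrome GTCTAGAC. Of the 11 windows of the identity genes, 2 held the PU.1 letters, 4 the MEF2 letters, 2 those of the interferon-stimulated response element, 1 the STAT letters and 0 the SMAD letters. These are matches of letters and not sites of binding.

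The libraries held 21287816 to 23703216 counts each, and a count of 0 allows up to 3 counts, or 0.124 to 0.147 CPM, the unit of counts scaled to library size. Mitochondrial genes took 4.85% of the counts in IgG 1 and 5.59% in IgG 3, against 1.97% to 2.41% in the other libraries. General markers of microglia were abundant, with Csf1r, the receptor for colony-stimulating factor, at 1189 ± 91.8 CPM in control (SD, n = 4). Other markers of resting microglia were near 0, with 21 counts of Siglech, 49 of Crybb1, 7 of Upk1b and 4 of Ecscr over the 8 libraries together. Monocyte markers summed to 1.34 to 2.55 CPM in control and 1.80 to 2.258 CPM with IgG, nearly all of it from Ccr2 (163 counts over the 8 libraries) and F10 (194), while Plac8 and Chil3 had 0 counts and Ly6c2 had 2. Ccr2, the receptor that brings monocytes into tissue, stood at 1.14 ± 0.353 CPM in control and 0.661 ± 0.175 CPM with IgG (SD, n = 4, edgeR adjusted p = 0.4715). Markers of other brain cells were present, with the oligodendrocyte lineage list at 1132 to 1726 CPM in control and 971.7 to 1622 CPM with IgG. The astrocyte list stood at 171.1 to 196 CPM in control and 149 to 191.4 CPM with IgG, and the neuron list at 37.9 to 63.6 CPM and 34.0 to 50.6 CPM. The part of these cells in the levels of Mef2c, Sall1 and Olfml3 was not tested. In bulk RNA, fewer cells of a type and less RNA per cell cannot be told apart.

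The levels per length, in RPKM (CPM divided by the exon length in kilobases), put Cx3cr1 far above the rest. Cx3cr1 stood at 98.2 ± 13.3 RPKM in control (SD, n = 4), above 96.7% of all tested genes. Mef2c followed at 9.95 ± 0.465 RPKM, Gpr34 at 5.59 ± 0.692 RPKM and Sall1 at 4.15 ± 0.220 RPKM. These 4 genes were apart in every control library, since the lowest Gpr34 value, 4.78 RPKM, was above the highest Sall1 value, 4.27 RPKM. Below them, P2ry12 stood at 2.74 ± 0.299 RPKM, P2ry13 at 2.43 ± 0.163 RPKM, Tmem119 at 2.198 ± 0.221 RPKM and Olfml3 at 2.12 ± 0.242 RPKM. Neighbours in this lower group overlapped in their control libraries. These 4 lay between the 34.6 and 39.6 percentiles of the tested genes, although 3 of them (P2ry12, P2ry13 and Tmem119) are often used as the defining surface markers of microglia. With the longest transcript as the length, Mef2c stood at 24.9 RPKM, and Olfml3 at 2.39 RPKM came above Tmem119 at 2.27 RPKM, while the other ranks were as before. Both GENCODE lengths of Olfml3, 6161 and 5465 bases, exceed its whole RefSeq span of 2608 bases. A length within that span would raise its RPKM, so its place in the lower group depends on the annotation.

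**Figure D1:**
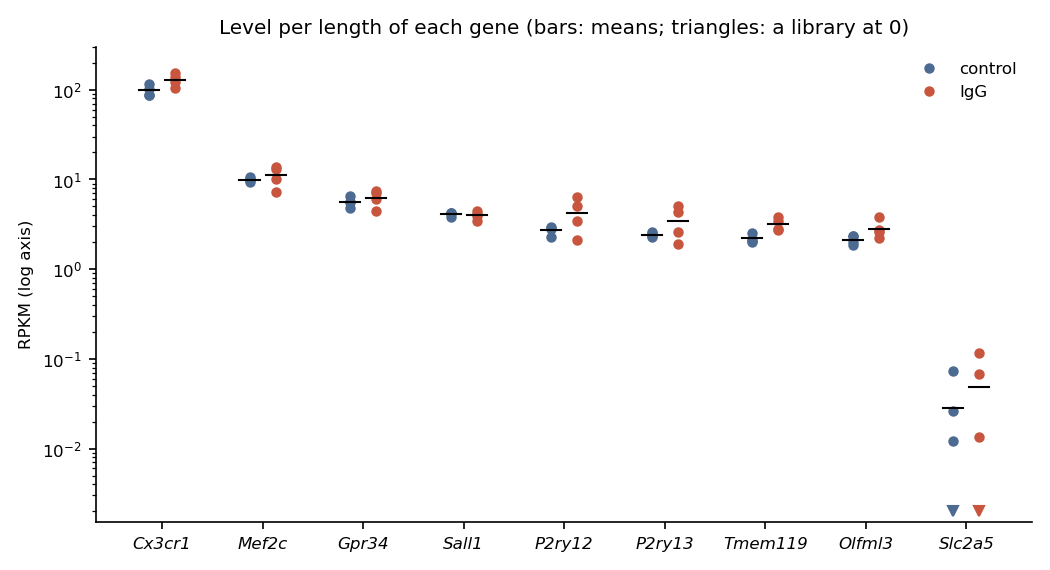
RPKM of each gene on a log axis, with a point for each of the 4 control (blue) and 4 IgG (red) libraries, bars at the means and triangles where a library had 0 counts. Cx3cr1 sits near 100 and Slc2a5 near the floor, while P2ry12, P2ry13, Tmem119 and Olfml3 overlap at about 2 to 3 RPKM in control.

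Slc2a5 was barely detected. Its counts were 1, 2, 6 and 0 in control 1 to 4 and 5, 9, 0 and 1 in IgG 1 to 4. The totals of 9 counts in control (exact 95% Poisson interval 4.12 to 17.1) and 15 with IgG (8.4 to 24.7) overlapped, and the intervals cover counting error only. No difference was detectable at this depth.

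For the other 8 genes, edgeR's quasi-likelihood test set IgG against control of the same date, with the pair as a block and Benjamini-Hochberg adjustment over all 17537 genes. None of the 8 passed an adjusted p of 0.05, against 0.393% of all tested genes, and 0 passed the criterion of the study, an unadjusted p under 0.01 with an absolute log2 fold change above 0.5, against 1.82%. At an unadjusted p under 0.05 there were 4 of 8 (P2ry12, Tmem119, Cx3cr1 and Olfml3), each with a higher level with IgG, against 10.2% of all tested genes. In all 4 pairs, 3 of 8 (Tmem119, Cx3cr1 and Olfml3) were higher with IgG, against 10.4% of all tested genes, and 0 were lower, against 8.47%. The median log2 fold change of the 8 genes was 0.40, beside -0.0051 over all tested genes. The genes were listed with earlier results of these libraries known, so the counts describe them and test nothing about them as a set.

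P2ry12 (ENSMUSG00000036353, chromosome 3, 59216272 to 59262871 on the minus strand in GENCODE M21 on mm10) was at 7.175, 7.396, 7.495 and 5.86 CPM in control 1 to 4 and at 16.0, 8.78, 12.8 and 5.42 CPM in IgG 1 to 4. IgG 1 and IgG 3 stood far above every control, IgG 4 was the lowest of all 8 libraries, and the groups overlapped. The control mean was 6.98 ± 0.761 CPM and the IgG mean 10.8 ± 4.64 CPM (SD, n = 4). The log2 fold change was 0.54 ± 0.207 (SE) with a 95% interval of 0.061 to 1.01, and the edgeR adjusted p was 0.461. Without pair 1 the log2 fold change was 0.32.

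P2ry13 (ENSMUSG00000036362, chromosome 3, 59207892 to 59210882 on the minus strand) read 5.85, 5.73, 6.53 and 6.46 CPM in control 1 to 4 and 12.8, 6.52, 10.99 and 4.87 CPM in IgG 1 to 4. The same libraries were high and low as for P2ry12, and the groups overlapped. Within pairs 1 to 4 the log2 change of P2ry13 was 1.11, 0.18, 0.74 and -0.40, and that of P2ry12 was 1.15, 0.25, 0.77 and -0.11. The fitted log2 fold change of P2ry13 was 0.43 ± 0.238 (SE, interval -0.11 to 0.98, edgeR adjusted p = 0.557), and it was 0.19 without pair 1 and 0.68 without pair 4. Both genes lie inside Med12l, which runs on the opposite strand, and P2ry12 shares 9 exon bases with it and P2ry13 0.

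Tmem119 (ENSMUSG00000054675, chromosome 5, 113793729 to 113800516 on the minus strand) was the only one of the 8 genes whose groups did not overlap, as was so for 4.17% of all tested genes. It read 5.06, 4.78, 5.82 and 4.69 CPM in control 1 to 4 and 6.57, 7.91, 6.28 and 8.79 CPM in IgG 1 to 4. Its order among the IgG libraries ran against that of the ADP receptors, with IgG 4 and IgG 2 highest. The means were 5.09 ± 0.512 and 7.39 ± 1.17 CPM (SD, n = 4), from 106 to 193 counts in a library. The log2 fold change was 0.53 ± 0.167 (SE, interval 0.15 to 0.91) with an unadjusted p of 0.0128 and an edgeR adjusted p of 0.367. Without the pair as a block, the edgeR test gave 0.54 with an unadjusted p of 0.00521 and an adjusted p of 0.692, which passes the criterion of the study but not the adjustment.

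Cx3cr1 (ENSMUSG00000052336) had the most counts of these genes, from 8794 to 14127 in a library. It read 391.4, 396.6, 464.8 and 516.6 CPM in control 1 to 4 and 623.4, 465.8, 693.4 and 552.6 CPM in IgG 1 to 4. Each IgG library was above its own control, but IgG 2 was close to control 3 and below control 4, so the groups overlapped. The means were 442.3 ± 59.7 and 583.8 ± 97.4 CPM (SD, n = 4). The log2 fold change was 0.39 ± 0.119 (SE, interval 0.12 to 0.67) with an unadjusted p of 0.0103, the lowest of the 8 genes, and an edgeR adjusted p of 0.357. GENCODE M21 places the gene on chromosome 9 from 119901616 to 120069879, a span that takes in other genes, whereas RefSeq gives 120048683 to 120068296. It shares 78 exon bases with Gm33858 on the opposite strand.

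Olfml3 (ENSMUSG00000027848) was also higher with IgG in all 4 pairs. Its values were 14.3, 12.4, 14.4 and 11.3 CPM in control 1 to 4 and 16.1, 13.8, 23.3 and 16.7 CPM in IgG 1 to 4. IgG 3 stood above the rest and IgG 2 lay within the control range, so the groups overlapped. The log2 fold change was 0.40 ± 0.130 (SE, interval 0.10 to 0.70) with an edgeR adjusted p of 0.387. Olfml3 spans 103722222 to 103738001 on chromosome 3 in GENCODE M21 and only 103735394 to 103738001 in RefSeq.

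Gpr34 (ENSMUSG00000040229, X chromosome, 13632089 to 13640858 on the plus strand) read 11.6, 11.6, 13.5 and 9.99 CPM in control 1 to 4 and 14.8, 12.6, 15.7 and 9.29 CPM in IgG 1 to 4. The groups overlapped, with IgG 4 lowest, and the log2 fold change was 0.15 ± 0.121 (SE, interval -0.13 to 0.43, edgeR adjusted p = 0.664). Without pair 1 the log2 fold change was 0.081, and without pair 4 it was 0.21.

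Sall1 (ENSMUSG00000031665, chromosome 8, 89027235 to 89044162 on the minus strand) read 22.4, 20.1, 22.5 and 22.4 CPM in control 1 to 4 and 21.96, 20.6, 23.6 and 18.3 CPM in IgG 1 to 4. The groups overlapped throughout, with a log2 fold change of -0.054 ± 0.106 (SE, edgeR adjusted p = 0.867), and the 95% interval of -0.30 to 0.19 bounds the size of a difference. Without pair 3 the log2 fold change of Sall1 was -0.093, and without pair 4 it was 0.0081. Mef2c (ENSMUSG00000005583, chromosome 13, 83504034 to 83667080 on the plus strand) read 158.1, 147.9, 165.4 and 154.2 CPM in control 1 to 4. With IgG it read 218.7, 158.7, 205.8 and 115.0 CPM, so that the 4 controls sat close together while IgG 1 and 3 were above all of them and IgG 4 below all of them. The log2 fold change of Mef2c was 0.12 ± 0.144 (SE, interval -0.21 to 0.45, edgeR adjusted p = 0.773). Without pair 1 that of Mef2c was -0.0009, and without pair 4 it was 0.28.

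**Figure D2:**
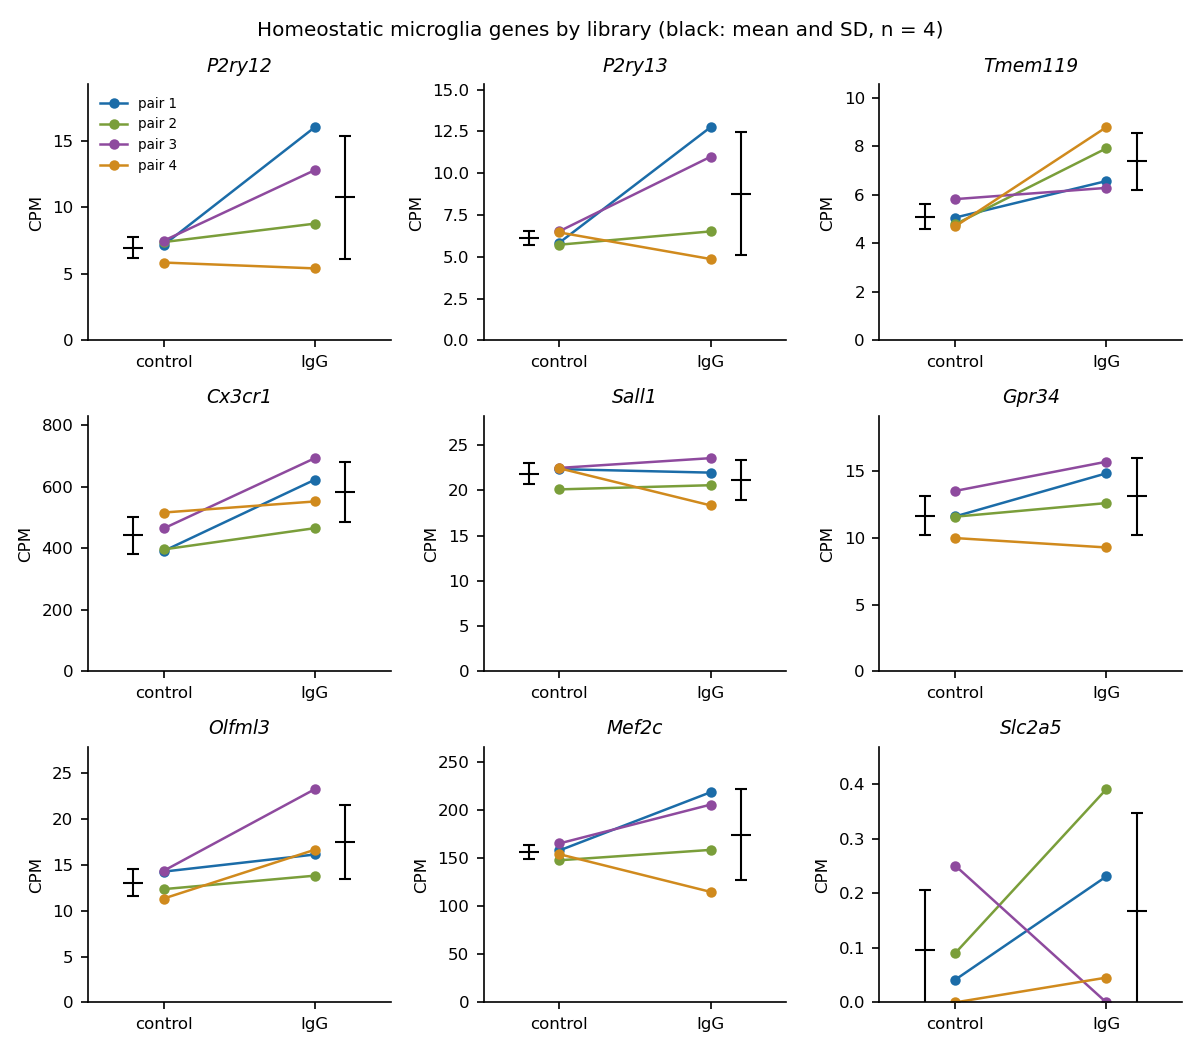
CPM of each gene in control and IgG, with a line for each of the 4 pairs of the same date and black marks for the mean and SD (n = 4). The IgG 1 and IgG 3 ends lie highest for P2ry12, P2ry13, Gpr34 and Mef2c, and the IgG 4 end lies highest for Tmem119.

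**Figure D3:**
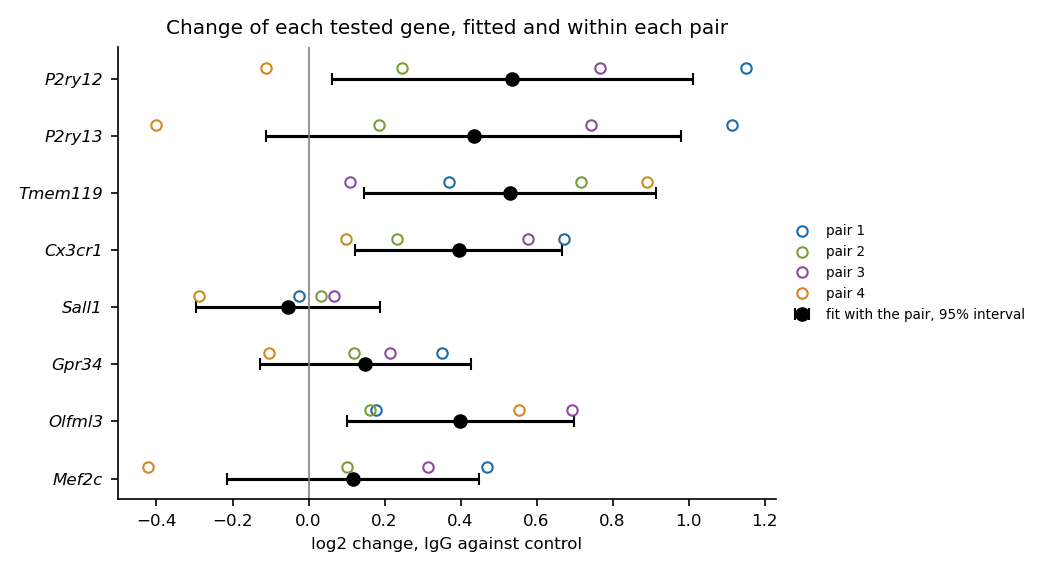
Log2 change of IgG against control for the 8 tested genes, with open circles for the 4 pairs and a black point with its 95% interval for the fit. The intervals of P2ry12, Tmem119, Cx3cr1 and Olfml3 lie above 0, and the pair 4 circles of P2ry12, P2ry13, Gpr34, Sall1 and Mef2c lie below it.

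The genes moved differently by pair. In pairs 1 to 4, 7, 8, 8 and 3 of the 8 genes had a higher value with IgG, and their median log2 change was 0.42, 0.17, 0.45 and -0.11. The median over all tested genes was within 0.016 of 0 in each pair. IgG 3 held the highest value of 4 genes, IgG 1 that of 3 and IgG 4 that of Tmem119 alone, while IgG 4 held the lowest value of 5. The pairs with the higher medians were those whose IgG library had the larger mitochondrial share. With mitochondrial genes removed, in a fit chosen after the data were seen, the median log2 fold change was 0.3977, beside 0.3971 with them. That fit takes out the mitochondrial genes but not other differences between the libraries that go with their share. The part of such differences in the result was not tested. With pairs 2 and 4 alone, chosen after the data were seen, the median log2 fold change was 0.045. In that fit Tmem119 was at 0.82 with an edgeR adjusted p of 0.00940, over a range of 0.00940 to 0.923 across its alternatives, and it was the only one of the 8 genes past adjustment, against 1.07% of all genes in that fit. Pairs 2 and 4 are the pairs in which Tmem119 had its highest values of change.

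The change within a pair also moved with the GC content of the gene. Over 11916 genes of at least 5 CPM, the Spearman correlation of the change with GC content was -0.46, -0.024, -0.455 and 0.395 in pairs 1 to 4, as a description across genes that share libraries. With exon length it was 0.259, -0.021, 0.267 and -0.53, so that in pair 4 the change moved more with length than with GC content. Gpr34 (37.1% GC), P2ry12 (38.6%), Mef2c (40.8%) and P2ry13 (44.7%) are the low end of these genes, and each was highest in pairs 1 and 3 and below 0 in pair 4. Tmem119, at 59.1%, is the high end and was highest in pair 4. After trends on GC content and exon length were removed from each library, for values by pair that were added after the data were seen, the changes of Tmem119 were 0.71, 0.72, 0.44 and 0.65 in pairs 1 to 4, where they had been 0.37, 0.72, 0.11 and 0.89. The range over the pairs narrowed from 0.78 to 0.28 for Tmem119, from 0.89 to 0.16 for Mef2c and from 0.46 to 0.17 for Gpr34. It widened slightly for Cx3cr1, from 0.57 to 0.60, for Sall1, from 0.36 to 0.39, and for Olfml3, from 0.53 to 0.56. For P2ry13 it was 1.52 before and 1.39 after, with changes of 1.02, 0.18, 0.64 and -0.37, so most of its spread was there with the trends removed. P2ry12 went from 1.26 to 0.87 and was higher with IgG in all 4 pairs after removal, at 0.91, 0.22, 0.50 and 0.038. In the edgeR fit with the block and this correction, Tmem119 had a log2 fold change of 0.64 with an unadjusted p of 0.000651 and an adjusted p of 0.0550. Cx3cr1 had one of 0.39 with an edgeR adjusted p of 0.187. In the same fit Olfml3 stood at 0.42, P2ry12 at 0.44, P2ry13 at 0.39, Mef2c at 0.063, Gpr34 at 0.045 and Sall1 at -0.045.

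**Figure D4:**
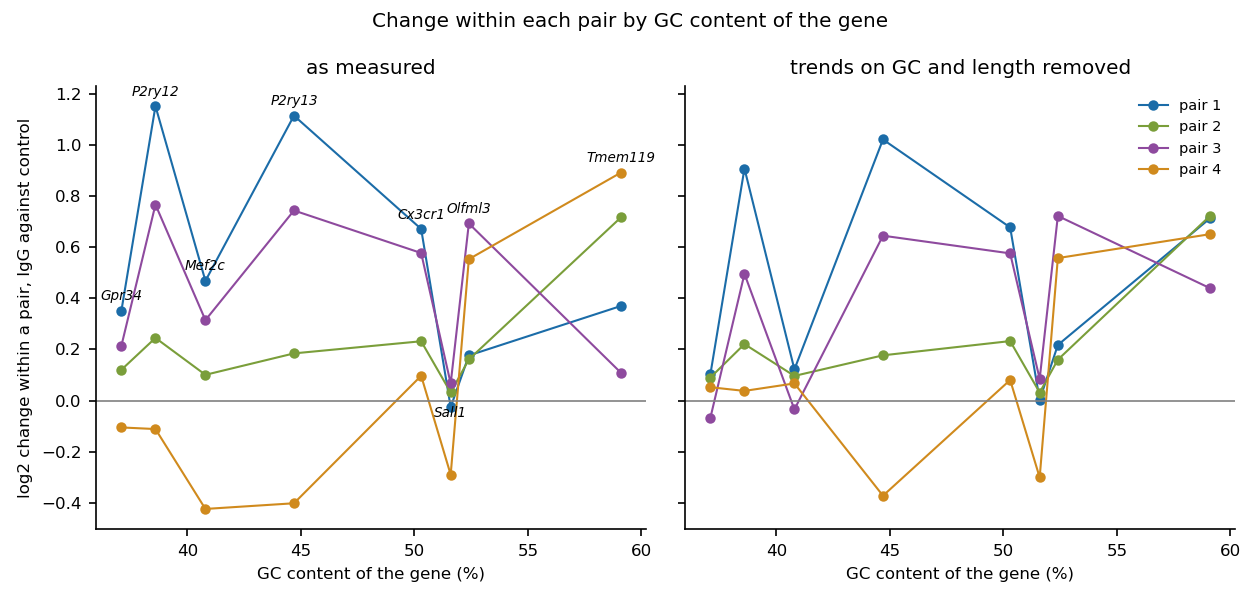
Log2 change within each of the 4 pairs against the GC content of the gene in percent, as measured (left) and after trends on GC content and exon length were removed from each library (right), with lines joining the 8 genes in order of GC content. The 4 pairs lie far apart for Mef2c and Tmem119 on the left and close together on the right, while P2ry13 stays spread.

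The date that the labels give, with no word on which step it marks, was tested in the same fit. None of the 8 genes passed an adjusted p of 0.05 for the date, against 0.975% of all tested genes, and 1 had an unadjusted p under 0.05, against 9.81%. That gene was Gpr34, whose p was 0.0451 and whose edgeR adjusted p was 0.4895.

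Likeness between genes was measured as the root mean square difference of log2 CPM, centred and scaled for each gene, over the 8 libraries, where 0 is the same profile. Among the 8 genes, P2ry12 and P2ry13 were the most alike at 0.307, followed by P2ry13 and Mef2c at 0.319. Tmem119 and Sall1 were the least alike at 1.64. Among 15668 genes of at least 1 CPM, the most like P2ry12 were Lrch3, Pcyox1 and Tmod3, at 0.0915 to 0.122, and the most like P2ry13 were Kpnb1, Cebpz and Ikzf5, at 0.0971 to 0.112. Each of these was nearer than the ADP receptors were to each other. Those most like Mef2c were Rock1, Pggt1b and Crk, and those most like Gpr34 were Rbm15, Sde2 and Glis3. Tmem119 had its nearest profiles in Cog7, Saa3 and Cebpd, at 0.237 to 0.299, farther off than Rock1 was from Mef2c at 0.0551. For Cx3cr1 they were Zdhhc4, 4731419I09Rik and Gm6061, for Sall1 they were Nae1, Jade3 and Slc16a1, and for Olfml3 they were Gm13408, Gm3650 and Prkra.

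Other genes of the resting state centred near 0. Of 26 listed, 22 were tested, with a median log2 fold change of 0.0054. At an adjusted p of 0.05, 1 rose and 0 fell, against 0.393% of all tested genes. At an unadjusted p under 0.05, 3 were higher and 3 lower, against 10.2% of all tested genes. In all 4 pairs, 6 were higher and 4 lower, against 10.4% and 8.47% of all tested genes. The gene that rose was Fcrls, a scavenger receptor of the Fc receptor-like family used as a marker of microglia, from 196.0 ± 45.7 to 349.4 ± 88.3 CPM (SD, n = 4). Its log2 fold change was 0.83 ± 0.115 (SE, edgeR adjusted p = 0.0329), and it was higher in all 4 pairs. The lowest was Slco2b1, an organic anion transporter, at -0.46 ± 0.156 (SE, edgeR adjusted p = 0.403). Of 11 tested general markers of microglia and macrophages, 2 rose at an adjusted p of 0.05, against 0.393% of all tested genes. They were Fcrls again and Aif1, the actin-binding protein IBA1, at 0.69 ± 0.0972 (SE, edgeR adjusted p = 0.0331). The lowest of these markers was Tyrobp at -0.20 ± 0.171 (SE, edgeR adjusted p = 0.672). Without the pair as a block no gene of any list passed adjustment, and Fcrls and Aif1 had edgeR adjusted p-values of 0.634 and 0.615.

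In the TGF-beta pathway, 0 of 16 tested genes passed adjustment and 2 had an unadjusted p under 0.05, against 0.393% and 10.2% of all tested genes. The median of the 16 was 0.038. They ran from Smad7, the inhibitory SMAD, at -0.42 ± 0.144 to Smad3, a signal-carrying SMAD, at 0.27 ± 0.102 (SE, edgeR adjusted p = 0.406 and 0.459). Of 18 tested transcription factors of microglia, 0 passed adjustment and 3 had an unadjusted p under 0.05, against 0.393% and 10.2% of all tested genes. They ran from Cebpb at -0.34 ± 0.197 to Mef2b at 0.31 ± 0.161 (SE). Of 7 tested nucleotide receptors other than the ADP receptors above, 0 passed adjustment, against 0.393% of all tested genes. At an unadjusted p under 0.05 there were 2 of these 7, against 10.2%. The highest, P2ry14, a receptor for UDP-sugars, stood at 0.76 ± 0.269 and the lowest, P2rx3, an ATP-gated channel, at -0.24 ± 0.190 (SE, edgeR adjusted p = 0.427 and 0.662). None of the 4 genes for Cx3cl1 and its proteases and none of 6 tested hexose transporters passed adjustment or had an unadjusted p under 0.05, against 0.393% and 10.2% of all tested genes. Cx3cl1 itself stood at 1.59 ± 0.426 CPM in control (SD, n = 4). Its log2 fold change was the highest of its list at 0.13, and that of Adam10 the lowest at 0.041. Among the transporters Slc2a9 was highest at 0.31 and Slc2a12 lowest at -0.099.

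Of 20 disease-associated microglia genes, which are known to climb as resting genes decline, 0 passed adjustment, against 0.393% of all tested genes. At an unadjusted p under 0.05 there were 6 (3 higher and 3 lower), against 10.2% of all tested genes, and the median log2 fold change was 0.019. Fth1, the ferritin heavy chain, was the 1 gene of this list to meet the criterion of the study, against 1.82% of all tested genes. It stood at 0.59 ± 0.138 and Apoe was lowest at -0.48 ± 0.259 (SE, edgeR adjusted p = 0.196 and 0.552). Markers of border-associated macrophages, relatives of microglia in the meninges and around vessels, were higher in part. Of 8 tested, 1 rose at an adjusted p of 0.05, Ms4a7 at 0.61 ± 0.0897 (SE, edgeR adjusted p = 0.0381), against 0.393% of all tested genes, and 4 met the criterion of the study, against 1.82%. Without the pair as a block 2 met it, against 0.844%. The other 3 were Cd209f at 1.97, Siglec1 at 0.67 and Cbr2 at 1.23, and the lowest was F13a1 at -0.31. The list summed to 459.3 to 703.9 CPM in control and 596.0 to 1179 CPM with IgG. Of its other markers, Mrc1 stood at 67.1 CPM in control and 79.0 CPM with IgG, Folr2 at 10.9 and 10.6 CPM and Pf4 at 5.61 and 6.40 CPM, and none of these 3 passed adjustment. Cd163 and Lyve1 were near 0, with 10 and 7 counts over the 8 libraries together. The part of such cells in the values of Cx3cr1 was not tested.

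Markers of the other cell types were set against control in the same fit, and none passed adjustment, against 0.393% of all tested genes. In the oligodendrocyte lineage list, 8 of 8 genes had a log2 fold change below 0 with a median of -0.14, from Cspg4, a proteoglycan of their precursors, at -0.014 to Olig2, a transcription factor of the lineage, at -0.50. Olig2 was lower with IgG in all 4 pairs, at 18.1 ± 6.23 CPM in control and 13.4 ± 6.48 CPM with IgG (SD, n = 4, edgeR adjusted p = 0.2345). In the astrocyte list 7 of 8 were below 0 with a median of -0.14, from Aldoc at -0.32 to Aldh1l1 at 0.22. In the neuron list 5 of 6 were below 0 with a median of -0.23, from Snap25 at -0.72 to Syt1 at 0.14. Over all tested genes, 8928 of 17537 were below 0. In the endothelial list 3 of 4 were above 0 with a median of 0.52, from Flt1, a receptor for vascular endothelial growth factor, at -0.18 to the adhesion molecule Pecam1 at 1.03. Cdh5, the endothelial cadherin, met the criterion of the study at 0.98, as did 1.82% of all tested genes. Its level went from 0.892 ± 0.485 CPM in control to 1.76 ± 0.972 CPM with IgG (SD, n = 4, edgeR adjusted p = 0.2209). The endothelial list summed to 129.9 to 167.7 CPM in control and 123.6 to 139.6 CPM with IgG, most of it Flt1, and Cldn5 had 0 counts. The fibroblast list ran from Col3a1 at 0.024 to Col1a1 at 0.44 with sums of 3.52 to 7.01 CPM in control and 4.86 to 6.43 CPM with IgG, and the monocyte list from Ccr2 at -0.76 to F10 at 0.53. The proliferation list ran from Ccnb1 at -0.087 to Top2a at 0.10. The part of these differences in the values of the identity genes was not tested.

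**Figure D5:**
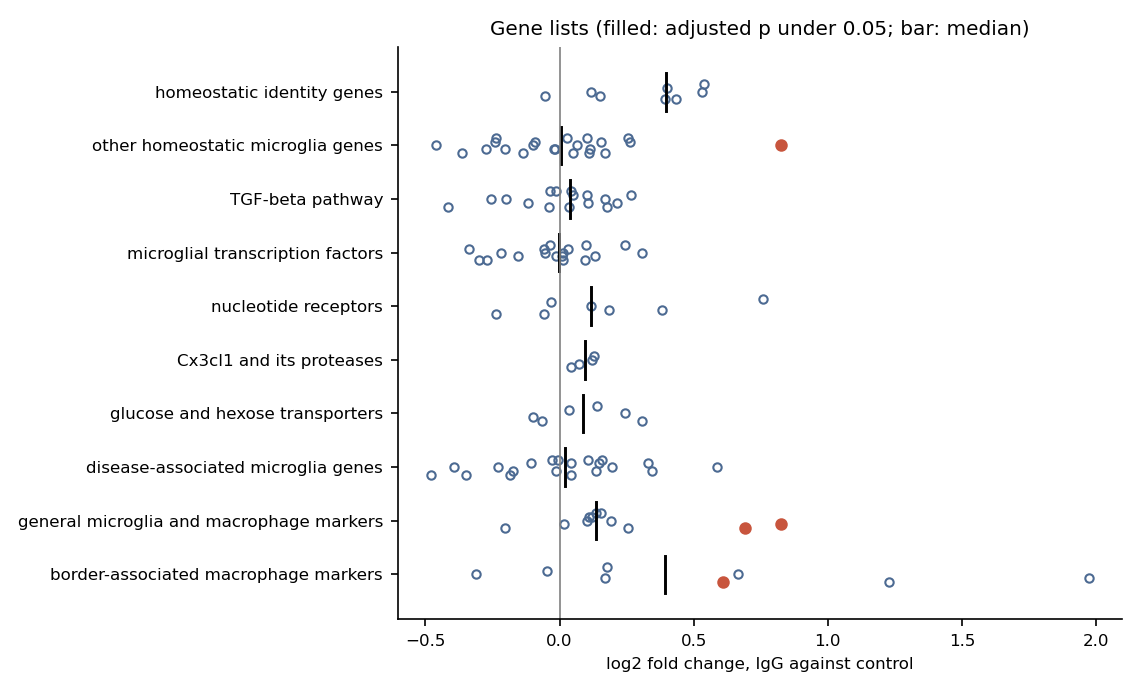
Log2 fold change of each tested gene by list, with filled red points for an adjusted p under 0.05 and bars at the medians. The 8 identity genes centre on 0.40 with no filled point, and the other resting-state genes centre near 0 with Fcrls as the filled point.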

How the data were processed

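The authors deposited a table of whole-number read counts per Ensembl gene for 8 libraries, with no normalization. The methods describe alignment to mm10, and the submitters' processing notes name HISAT2 2.2.1, SAMtools 1.12, Picard 2.26.3, featureCounts, R 4.1.2 and edgeR 3.36.0. The annotation, the use of strand and the treatment of reads with several alignments are not given in the sources used here, so overlapping genes are uncertain. Symbols, exon lengths and GC content came from GENCODE M21, in which 55144 identifiers were found. Counts were scaled by TMM, filtered with filterByExpr and tested with edgeR 4.0.16 in R 4.3.3, with the pair as a block because the labels give same-numbered libraries the same date. Same-numbered libraries deviated together from their group means at correlations of 0.468, 0.429, 0.28 and 0.325 across 11928 genes. Libraries with different numbers ran from -0.384 to 0.278, so that pair 3 was close to the highest of these. CPM and RPKM were computed here, and log2 CPM used a prior count of 2. Libraries within a group all differed by more than sampling noise (chi-square per degree of freedom at least 5.00). Scripts were tested on simulated data. All 9 genes were described. From other lists, genes past adjustment or the criterion of the study and the highest and lowest were named, and for each of the 8 genes the 3 most similar profiles. The genes and lists were chosen with earlier results of these data known. Alternatives used DESeq2 1.42.0, limma-voom (limma 3.58.1), a likelihood ratio test, other scalings and filters, a lowess correction (span 0.3) and the omission of each pair.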

Additional observations from a re-analysis of the deposited data

Results flagged for a closer look

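In the control group, Sall1 stood at 20.1 CPM in control 2, apart from the other 3 controls at 22.4 to 22.5 CPM, with a gap of 0.944 of the group's range. Of 18 groups of 4 values examined this way it was the only one set apart, and chance sets apart about 1 in 20. IgG 2, of the same date, read 20.6 CPM.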

How the results depend on the processing

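None of the 8 genes passed an adjusted p of 0.05 in 12 other fits, or with mitochondrial genes removed, and 1, Tmem119, did with pairs 2 and 4 alone (both chosen after the data were seen). Unadjusted p-values under 0.05 ranged over these fits from 1 of the identity genes without pair 3 (4.24% of all tested genes) to 5 without pair 4 (23.4%) and over all genes with at least 1 count (8.52%). The count of identity genes past the criterion of the study, 0 in the fit reported, was 1, Tmem119 each time, without the replicate block (0.844% of all genes), with the likelihood ratio test (3.01%), with the GC and length correction (1.89%) and with pairs 2 and 4 alone (1.84%). It was 2 over all genes with at least 1 count (P2ry12 and Tmem119, 2.07%), and 0 to 2 when a pair was left out, with Tmem119 past it without pair 3 (1.23%), and P2ry12 and P2ry13 without pair 4 (4.34%). Over all genes, the 69 past adjustment became 0 without the replicate block (1230 at an unadjusted p under 0.05 with edgeR), 233 with DESeq2, 327 with the likelihood ratio test, 37 with total counts alone, 376 with all genes of at least 1 count, 196 with the correction, 190 with pairs 2 and 4 alone, and 0 to 182 when a pair was left out. It was 14 without pair 1, 0 without pair 2 (1615 at an unadjusted p under 0.05 with edgeR), 16 without pair 3 and 182 without pair 4. The 320 past the criterion of the study became 148 without the block, 528 with the likelihood ratio test, 648 with all genes, and 215 to 762 when a pair was left out. The 171 past adjustment for the date became 536 with DESeq2, 891 with all genes, and 6 to 183 when a pair was left out, with 6 without pair 2 and 78 without pair 4. The median of the identity genes ranged from 0.25 to 0.46 when a pair was left out, was 0.045 with pairs 2 and 4 alone and 0.30 with total counts alone, a scaling that put the median of all genes at -0.11. When a pair was left out, Mef2c ranged from -0.0009 (without pair 1) to 0.28 and Sall1 from -0.093 to 0.0081 (without pair 4). With pairs 2 and 4 alone, Mef2c turned to -0.16 and P2ry13 to -0.11. P2ry12, Tmem119, Cx3cr1, Gpr34 and Olfml3 kept a positive log2 fold change in all 14 alternatives, but with pairs 2 and 4 alone P2ry12 was at 0.078, Cx3cr1 at 0.165 and Gpr34 at 0.011. Gpr34 was also at 0.081 without pair 1, 0.048 with total counts alone and 0.045 with the correction, and Mef2c was at 0.017 and 0.063 in the last 2 of these fits and at 0.051 without pair 3. Sall1 was at -0.15 with total counts alone and -0.13 with pairs 2 and 4 alone. The cause of these shifts was not tested.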
